A study of Mus musculus with 24 samples.

Results

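The genes described here are 8 imprinted genes with known roles in islets or in growth control, Igf2, H19, Meg3, Dlk1, Cdkn1c, Peg3, Grb10 and Plagl1. They were taken from the count table by gene symbol, and the choice was made with earlier results of these data known. All 8 were listed among the 17696 genes of the table, but H19 stayed at the detection limit of 3 reads or fewer in every library. RNA-seq libraries had been made from stable lines of MIN6 cells, a mouse insulinoma β cell line that arose in mice with a viral T antigen under the insulin promoter. Each line had been transduced with a lentiviral vector, selected with puromycin and expanded from single clones. Scr cells carried a scrambled sequence, ZIP cells an antisense inhibitor of miR-146a-5p, and OE cells a vector for miR-146a-5p overexpression. Each line was sequenced without cytokines and after 24 h with a cytokine mix (Scr+Cy, ZIP+Cy and OE+Cy). The mix held IFNγ at 100 ng/ml, TNFα at 10 ng/ml and IL-1β at 5 ng/ml. Each of the 6 groups had 4 libraries.

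An imprinted gene is transcribed mainly from the chromosome inherited from the mother or from that inherited from the father, and a methylated control region shared by several neighbours usually sets which. Igf2, Dlk1, Peg3 and Plagl1 are paternally expressed, and H19, Meg3, Cdkn1c and Grb10 are maternally expressed in most tissues. In islets, Igf2 acts as a growth and survival factor of β cells, Cdkn1c restrains their division, and the Dlk1 and Meg3 domain is active in β cells. The libraries do not separate the parental alleles, so a level below is the sum over alleles. In such bulk libraries, fewer cells with a transcript and less of it per cell cannot be told apart.

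The microRNA that was inhibited or overexpressed is shown with its seed, bases 2 to 8, in capitals, because the study's lines were built on it. It lies in the mouse genome at chromosome 11 from 43374435 to 43374456 on the minus strand (GRCm38.p6, sequence from RefSeq).
mmu-miR-146a-5p: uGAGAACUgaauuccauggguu
The 7 bases that pair with this seed, AGTTCTC, were searched in the annotated transcripts of the members (GENCODE M21, sense strand only), in the 3′ UTR of the coding members and in the whole transcript of H19 and Meg3. Of the 6 coding members only Igf2 held a match, in 4 of 5 transcripts searched, while 13.29% of 21166 mouse genes with a 3′ UTR held at least 1. Cdkn1c, Dlk1, Grb10, Peg3 and Plagl1 held no match to these 7 bases. Other kinds of seed match were not searched, so their absence is not shown. The sites are given with 10 bases on either side and the match in capitals.
Igf2 3′ UTR: ccacatttgcAGTTCTCcccatcatag
Meg3 transcript: ggctcttctgAGTTCTCctcccactag
H19 transcript: atgaaaggtgAGTTCTCttctgcccca
A match is a description of the sequence and not of a site in use. The Meg3 match was in 1 of 11 transcripts searched and the H19 match in 3 of 7.

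Between 26657792 and 37168232 reads were assigned to genes per library. All 12 β cell markers checked were listed with a mean of at least 1 CPM (counts scaled to library size with TMM factors), among them Ins2. Of 8 exocrine markers 5 were not listed, and the ductal keratin Krt19 had 0 reads in every Scr and ZIP library and 12.4 to 17.4 CPM in OE. Islet markers moved with the lines too. By the limits given below, 4 of the 12 β cell markers were higher and 0 lower in ZIP than in Scr. In OE 6 were higher and 2 lower than in Scr, and in OE+Cy 8 were lower than in OE. Of all genes, 7.62% were higher and 6.78% lower in ZIP, 10.8% and 14.1% in OE, and 7.92% lower in OE+Cy than in OE. Ucn3, a peptide of mature β cells, was at 0.197 ± 0.107 CPM in Scr and 19.6 ± 1.36 CPM in OE. Of 7 markers of other islet cells 5 were listed, with 3 called higher and 1 lower in OE than in Scr. The pancreatic polypeptide gene Ppy and the α cell factor gene Irx2 had 0 reads in every Scr library and 8.89 ± 2.15 and 2.86 ± 0.773 CPM in OE, while the glucagon gene Gcg was called lower in OE. The part of these shifts in the results for the members was not tested. In 3 libraries, Scr replicate 1, ZIP replicate 1 and Scr+Cy replicate 1, the connective tissue genes Col1a1, Col3a1 and Dcn summed to up to 41.0 CPM, and to no more than 3.17 CPM in the other 21. The part of these transcripts in the results was not tested, beyond the values given without the 3 libraries, an alternative chosen after the data had been seen. Each library was closest to a library of its own group. The labels number replicates from 1 to 4 but do not say that these were separate cultures, so the p values measure only the spread between these libraries. Line and clone changed together, as did, for OE, the vector and its reporter (TurboRFP, with copGFP in Scr and ZIP), and their parts in a difference between lines cannot be told apart. Mature miR-146a-5p is not among the genes counted, and the labels were not checked on it. By qRT-PCR, the study reported it raised in OE but unchanged in ZIP against Scr without cytokines. With cytokines, the study reported a far smaller rise in ZIP than in Scr. A difference between untreated ZIP and Scr is thus not one between measured levels of miR-146a-5p.

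The members covered a wide range of levels. Levels per kilobase are approximate, because lengths joined all exons annotated in GENCODE M21, while reads were assigned with RefSeq transcripts. Per kilobase of annotated exons, Igf2 stood highest in Scr at 1558 ± 94.7 CPM per kb (SD, n = 4), compared with 8333 ± 1558 CPM per kb for its neighbour Ins2. Peg3 followed at 147 ± 6.40 CPM per kb, then Plagl1 at 29.1 ± 1.82, Meg3 at 8.39 ± 1.45 and Cdkn1c at 1.24 ± 0.160. Grb10 (0.0574 ± 0.0361 CPM per kb) and Dlk1 (0.0234 ± 0.0126) were close to the limit in Scr. In OE, Dlk1 stood above Cdkn1c on this scale, at 1.35 ± 0.381 against 0.154 ± 0.0371 CPM per kb.

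**Figure D1:**
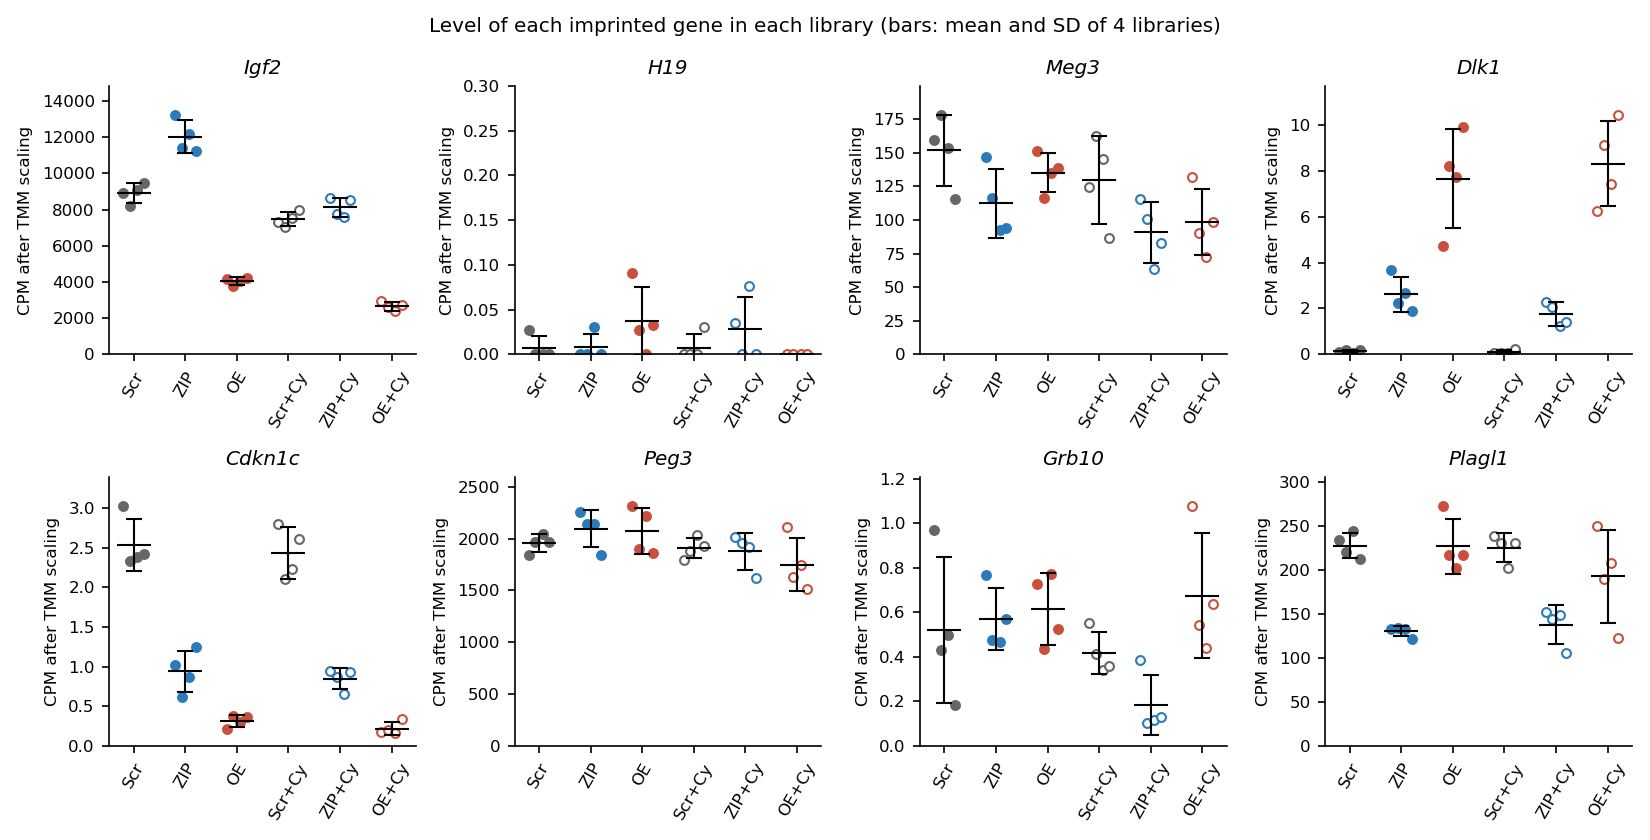
Level of each of the 8 imprinted genes in each of the 24 libraries, in CPM after TMM scaling, on linear axes that start at 0. Points are libraries (filled without and open with cytokines), and black bars give the mean and SD of 4 libraries. Dlk1 was at most 0.240 CPM in all Scr and Scr+Cy libraries and at least 4.75 CPM in all OE and OE+Cy libraries, and Cdkn1c followed the reverse order.

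A member was called different where edgeR's quasi-likelihood test gave an unadjusted p under 0.05 and the groups differed 1.5-fold or more, the limits used by the study. H19 was left out of all calls. In ZIP versus Scr 3 members were called (14.4% of all genes), with Dlk1 higher (7.62% of all genes) and Cdkn1c and Plagl1 lower (6.78%). In OE versus Scr 3 were called (24.9%), with Dlk1 higher (10.8%) and Igf2 and Cdkn1c lower (14.1%). In Scr+Cy versus Scr edgeR called 0 members, where it called 10% of all genes, 7.5% higher and 2.53% lower. There, 1 member had an unadjusted p under 0.05, Igf2, and DESeq2 also called 0 members. The median log2 fold change over the 8 members was 0.11 in ZIP, 0.04 in OE and −0.14 in Scr+Cy, beside medians of 0 over all genes in both lines. The value for H19, at the detection limit, is part of these medians, and over the 6 members with a mean of at least 1 CPM the median turned negative in ZIP (−0.17) and OE (−0.09). Counts of this size over so few genes describe the members and say nothing about imprinted genes in general.

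The remaining comparisons are given in the same way. In ZIP+Cy versus Scr 5 members were called (20.9% of all genes), 1 higher (11.5%) and 4 lower (9.34%), and in OE+Cy versus Scr 4 were called (33.2%), 1 higher (17.6%) and 3 lower (15.6%). Against Scr+Cy, 4 members were called in ZIP+Cy (15.2%), 1 higher (6.78%) and 3 lower (8.45%), and 3 in OE+Cy (27.8%), 1 higher (13.2%) and 2 lower (14.6%). Within a line, cytokines lowered 1 member in ZIP, where 12% of all genes were called, 6.88% higher and 5.08% lower, and 1 in OE, where 20.4% were called, 12.5% higher and 7.92% lower. OE differed from ZIP in 4 members (26.7%), 2 higher (11%) and 2 lower (15.7%), and OE+Cy from ZIP+Cy in 4 (28.3%), 2 higher (14.3%) and 2 lower (14%). These comparisons share groups and are not independent of each other.

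**Figure D2:**
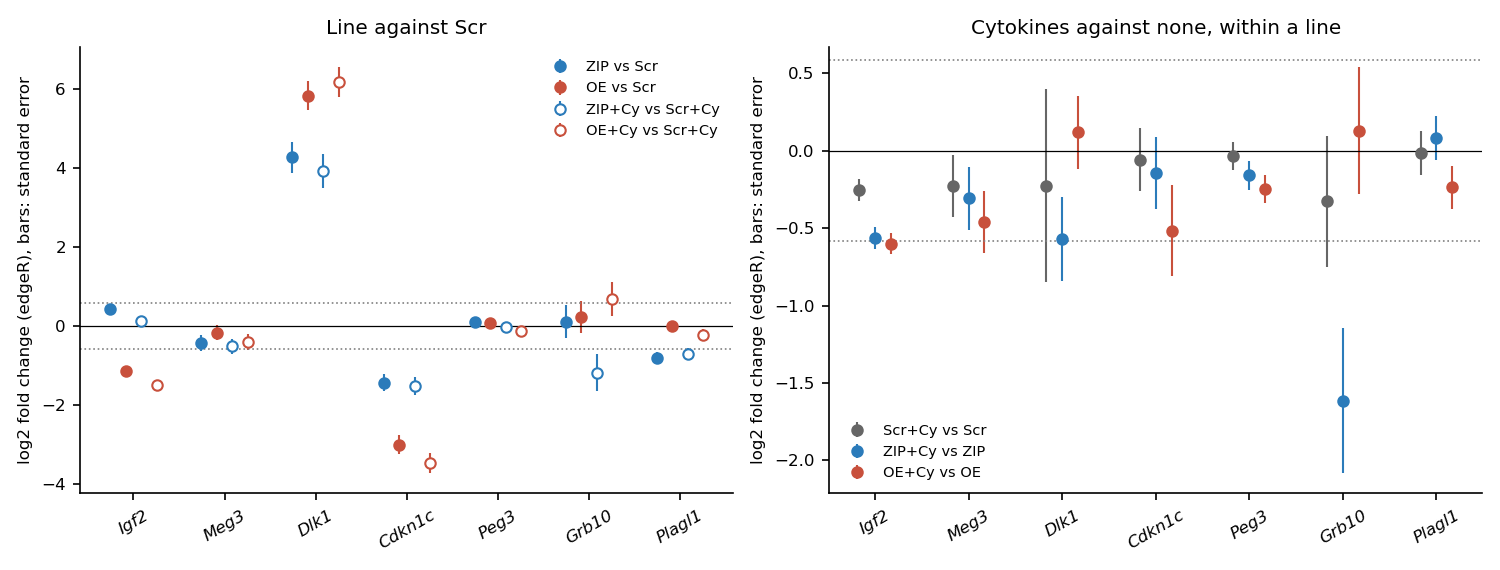
Log2 fold changes of the 7 detected members with their standard errors from edgeR, for each line against Scr (left; open points compare cytokine-treated groups) and for cytokines within each line (right; the vertical scales differ). Dotted lines mark a fold change of 1.5. Dlk1 was raised and Cdkn1c lowered in both modified lines with and without cytokines, while cytokines moved only Igf2 in OE and Grb10 in ZIP past the line with an unadjusted p under 0.05.

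Igf2 encodes insulin-like growth factor II, a ligand of the IGF1 receptor. It lies on chromosome 7 of mm10 from 142650768 to 142666816 on the minus strand, between H19 and Ins2. Its level was 8904, 8193, 9074 and 9493 CPM in the 4 Scr libraries and 13239.9, 11397, 12181 and 11262 CPM in ZIP. In OE it was 4185, 3755, 4031 and 4196 CPM. The 3 untreated lines therefore did not overlap, with ZIP highest and OE lowest.

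The mean of Igf2, 8916 ± 542 CPM (SD, n = 4) in Scr, fell 2.21-fold in OE, to 4042 ± 206 CPM (adjusted p = 1.51e-12, log2 fold change −1.14 with a standard error of 0.070). In ZIP the mean was 1.35-fold that of Scr (log2 fold change 0.43, standard error 0.069, adjusted p = 3.33e-05), all 4 libraries above all Scr libraries but below the fold change limit. Groups that do not overlap were common, at 27.2% of all genes in ZIP versus Scr and 46.5% in OE versus Scr. This share was not computed for other pairs of groups. Directly compared, OE was lower than ZIP (log2 fold change −1.57, standard error 0.071, adjusted p = 4.66e-15). Igf2 made up 0.371% to 0.429% of all assigned reads in OE and 1.08% to 1.29% in ZIP.

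With cytokines, Igf2 was at 7327, 7022, 7562 and 7998 CPM in Scr+Cy, at 8654, 7780, 7590 and 8511 CPM in ZIP+Cy, and at 2975, 2611, 2369 and 2709 CPM in OE+Cy. Each treated group lay below the untreated libraries of its own line without overlap. How many of all genes did not overlap within a line was not computed. The log2 fold change was −0.25 in Scr (standard error 0.069, adjusted p = 0.0114), −0.56 in ZIP (standard error 0.070, adjusted p = 9.55e-07) and −0.60 in OE (standard error 0.070, adjusted p = 1.6e-07). Only the decrease in OE reached the fold change limit, narrowly, and without OE replicate 1 (−0.58), OE replicate 4 (−0.58) or OE+Cy replicate 3 (−0.56) it did not. That in ZIP reached it without ZIP replicate 2 (−0.59), ZIP replicate 4 (−0.59), ZIP+Cy replicate 1 (−0.60) or ZIP+Cy replicate 4 (−0.59).

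Tested as an interaction, the cytokine decrease of Igf2 was larger in OE than in Scr (difference of log2 fold changes −0.35, standard error 0.098, adjusted p = 0.014), a difference called for 20% of all genes. For ZIP the corresponding difference was −0.31 (standard error 0.098, unadjusted p = 0.00438, adjusted p = 0.485), which did not pass, where 0.0565% of all genes did. Ordered by level, Igf2 ran from ZIP through Scr, ZIP+Cy, Scr+Cy and OE to OE+Cy. Neighbours in this order were distinct except Scr and ZIP+Cy (adjusted p = 0.135) and ZIP+Cy and Scr+Cy (adjusted p = 0.208), whose libraries overlapped. In cytokine-treated cells OE+Cy remained below Scr+Cy, 2.80-fold lower (log2 fold change −1.49, standard error 0.071, adjusted p = 1.52e-14).

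The antisense transcript Igf2os overlaps Igf2 on the opposite strand, and whether counting used strand was not given in the sources used here, so reads of the pair may not be fully separated. Igf2os averaged 848 ± 66.4 CPM in Scr and 267 ± 22.8 CPM in OE, which is −1.67 ± 0.12 on the log2 scale (fold change with its standard error, adjusted p = 4.65e-11). In OE+Cy it was lower still (−1.31 against OE, standard error 0.12, adjusted p = 5.44e-09). Ins2, which lies next to Igf2 and encodes proinsulin, moved the other way in OE, where it reached 18879 ± 938 CPM against 10933 ± 2044 in Scr (adjusted p = 1.76e-06, log2 fold change 0.79). Th, the tyrosine hydroxylase gene beyond Ins2, rose in both lines, by 2.15 in ZIP (standard error 0.19, adjusted p = 4.57e-09) and by 1.89 in OE (standard error 0.19, adjusted p = 1.11e-08). Mrpl23, a mitochondrial ribosomal protein gene on the far side of H19, had log2 fold changes of 0.05 in ZIP and 0.09 in OE.

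H19 is a maternally expressed long non-coding RNA whose transcription is coupled to that of Igf2 through a shared control region. It lies on chromosome 7 from 142575530 to 142578146, minus strand. Only 11 reads were assigned to it over all libraries, with 0 reads in 16 libraries and 1 to 3 reads in the other 8. A count of 0 allows up to 3 reads, or 0.0883 to 0.105 CPM depending on the group, counting error only. Any difference in H19 between groups was not detectable at this depth, although Igf2 had at least 75022 reads in each library.

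Other genes of the IGF axis were taken from a list of 26 ligands, receptors, binding proteins and adaptors, of which 23 were listed. Of these, 4 were higher and 1 was lower in ZIP, 8 were higher and 2 lower in OE, and 3 were higher in Scr+Cy, where 14.4%, 24.9% and 10% of all genes were called. Without the 3 libraries with connective tissue transcripts, 6 were higher in ZIP, 10 in OE and 2 in Scr+Cy. The call lost in Scr+Cy was Igfbp6, with 78 reads in replicate 1 and 0 to 1 in the other 3. Igf1r, the receptor that signals for IGF2, averaged 7.53 ± 2.04 CPM in Scr, while ZIP had 16.7 ± 2.71 CPM and OE 429.9 ± 39.1 CPM, which put OE 5.83 above Scr on the log2 scale (adjusted p = 1.05e-15, standard error 0.24). After cytokines in Scr it was 0.69 higher (standard error 0.23, adjusted p = 0.0401), a call lost without Scr replicate 4, Scr+Cy replicate 1 or Scr+Cy replicate 2 (0.56, 0.57 and 0.51). The imprinted scavenger receptor gene Igf2r, whose protein binds IGF2 for degradation, was lower in OE, with a value of −0.75 (standard error 0.08, adjusted p = 1.15e-08).

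Binding protein genes of this axis also differed between lines. Igfbp4 averaged 4.50 ± 0.299 CPM in Scr, with 0.747 ± 0.285 CPM in ZIP and 93.3 ± 11.3 CPM in OE, so it was lower in ZIP (log2 fold change −2.59, standard error 0.28, adjusted p = 1.07e-07) and higher in OE (4.37, standard error 0.19, adjusted p = 2.1e-15). Igfbp7 was higher in ZIP (1.19, adjusted p = 4.78e-06), in OE (3.54, adjusted p = 3.46e-15) and after cytokines in Scr (0.84, adjusted p = 7.99e-04). Ins1, the second insulin gene of the mouse, reached 7673 ± 809 CPM in OE against 674 ± 124 in Scr (adjusted p = 1.76e-15, log2 fold change 3.51). The levels of Igf2 and Igf1r thus moved in opposite directions in OE.

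Dlk1 encodes a membrane protein related to NOTCH ligands, and is expressed in β cells and in other endocrine tissues. It lies on chromosome 12 from 109452823 to 109463336 on the plus strand, upstream of Meg3. It had 3, 7, 2 and 6 reads in the 4 Scr libraries, or 0.0809, 0.201, 0.0625 and 0.186 CPM. In ZIP it was at 3.66, 2.26, 2.67 and 1.88 CPM, and in OE at 4.75, 8.22, 7.75 and 9.92 CPM. None of these groups overlapped. Of all genes, 27.2% did not overlap in ZIP versus Scr and 46.5% in OE versus Scr, and OE versus ZIP was not counted.

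The mean of Dlk1 rose from 0.133 ± 0.0710 CPM (SD, n = 4) in Scr to 2.62 ± 0.765 CPM in ZIP, 19.2-fold (log2 fold change 4.26, standard error 0.38, adjusted p = 4.98e-09). In OE it reached 7.66 ± 2.16 CPM, 56.2-fold higher than Scr (log2 fold change 5.81, standard error 0.36, adjusted p = 2.18e-12). OE also exceeded ZIP, 2.93-fold (log2 fold change 1.55, standard error 0.25, adjusted p = 1.5e-05). The folds against Scr rest on 2 to 7 reads per Scr library, so their size is less certain than their direction. Over 15 alternatives each, they ranged from 3.87 to 4.54 in ZIP and from 5.62 to 6.09 in OE on the log2 scale.

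In cytokine-treated cells Dlk1 kept this order, at 0.0616, 0.0689, 0.0686 and 0.240 CPM in Scr+Cy, 2.30, 2.07, 1.23 and 1.42 CPM in ZIP+Cy, and 6.25, 9.11, 7.42 and 10.4 CPM in OE+Cy. ZIP+Cy was 15.1-fold and OE+Cy 71.3-fold above Scr+Cy (adjusted p = 8.22e-08 and 1.66e-12). These folds rest on 2 to 8 reads per Scr+Cy library, so their size is uncertain too. Over 15 alternatives each, they ranged from 3.71 to 4.65 in ZIP+Cy and from 5.95 to 6.89 in OE+Cy on the log2 scale. Treated and untreated libraries of the same line overlapped in all 3 lines. The largest change within a line was in ZIP, with a log2 fold change of −0.57 (standard error 0.27, unadjusted p = 0.0475, adjusted p = 0.132), under the fold change limit. With the replicate number as a block (the numbers paired the libraries of these groups) it was −0.59 (unadjusted p = 0.0421) and passed. It also passed without ZIP replicate 2 (−0.63), ZIP replicate 4 (−0.70), ZIP+Cy replicate 1 (−0.73) or ZIP+Cy replicate 2 (−0.66).

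Meg3 is the maternally expressed long non-coding RNA of the same domain and lies downstream of Dlk1, on chromosome 12 from 109540996 to 109571729. Its level was 160, 178, 153 and 116 CPM in Scr, 147, 116, 92.1 and 94.2 CPM in ZIP and 151, 116, 135 and 138 CPM in OE. The libraries of the 3 lines overlapped. In ZIP its log2 fold change was −0.43 (standard error 0.20, unadjusted p = 0.0397, adjusted p = 0.111) and in OE −0.17 (standard error 0.20, adjusted p = 0.516), neither past the limits. Without ZIP replicate 1 the value in ZIP was −0.59 and passed.

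With cytokines, Meg3 averaged 130 ± 32.7 CPM in Scr+Cy, while ZIP+Cy had 90.7 ± 22.4 CPM and OE+Cy 98.4 ± 24.7 CPM. Relative to untreated Scr it was lower in ZIP+Cy (log2 fold change −0.74, standard error 0.20, adjusted p = 0.00432), without overlap, and in OE+Cy (−0.63, standard error 0.20, adjusted p = 0.00952), with overlap. The call in OE+Cy was lost without Scr replicate 2 (−0.54), OE+Cy replicate 2 (−0.57) or OE+Cy replicate 3 (−0.49). Within a line, the log2 fold change with cytokines was −0.23 in Scr, −0.31 in ZIP and −0.46 in OE, and none passed. The value in OE was −0.63 and passed without OE+Cy replicate 1. Between ZIP+Cy and Scr+Cy, Meg3 passed without Scr+Cy replicate 4 (−0.67) or ZIP+Cy replicate 1 (−0.64).

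Other genes downstream in the domain were lower in ZIP, the reverse of Dlk1. Rian, a non-coding RNA that hosts small nucleolar RNAs, was at 252 ± 21.3 CPM in Scr and 162 ± 20.0 CPM in ZIP (log2 fold change −0.64, standard error 0.14, adjusted p = 9.45e-04). That call was lost without Scr replicate 3 (−0.58) or ZIP replicate 3 (−0.57). Mirg, which hosts microRNAs, was at 7.40 ± 1.10 and 3.95 ± 0.296 CPM (−0.91, standard error 0.18, adjusted p = 4.48e-04), and Rtl1 at 2.97 ± 0.458 and 1.59 ± 0.280 CPM (−0.90, standard error 0.24, adjusted p = 0.00582). Rtl1 derives from a retrotransposon and has an antisense transcript from the other allele, so its reads are uncertain in origin without strand.

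In OE, Mirg was lower than in Scr (−0.64, standard error 0.18, adjusted p = 0.00466), a call lost without Scr replicate 4 (−0.54) or OE replicate 2 (−0.50). Rian and Rtl1 had log2 fold changes of −0.22 and −0.40 there and did not pass, but without OE replicate 1 Rtl1 was at −0.59 and passed. Begain, the gene upstream of Dlk1, was 0.69 higher in ZIP (standard error 0.26, adjusted p = 0.0483) and lower in OE (−1.63, standard error 0.29, adjusted p = 4.38e-05), at 1.28 ± 0.194 CPM in Scr. Cytokines lowered 3 of the 4 listed neighbours in OE, where 7.92% of all genes were lower. Rian was at 97.7 ± 26.3 CPM in OE+Cy (−1.15 against OE, standard error 0.14, adjusted p = 3.32e-07). The decrease of Rian with cytokines was larger in OE than in Scr (difference −0.84, standard error 0.19, adjusted p = 0.00333 for the interaction).

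Of 15 genes listed for DLK1 and the NOTCH pathway, 14 were in the table. In ZIP, 4 were lower (6.78% of all genes), and in OE, 6 were lower (14.1%) and 2 higher (10.8%). Dll1, a NOTCH ligand, averaged 12.9 ± 1.55 CPM in Scr, with 6.83 ± 1.66 CPM in ZIP and 2.55 ± 0.536 CPM in OE, with log2 fold changes of −0.91 and −2.33 (adjusted p = 0.0107 and 3.3e-07). After cytokines in Scr it rose by 1.24 (adjusted p = 6.06e-04). The receptor gene Notch2 had −0.88 in ZIP (adjusted p = 0.0425) and −1.85 in OE (adjusted p = 6.43e-05), and its call in ZIP was lost without Scr replicate 1 (−0.70). In Scr+Cy it was called at 0.75 (adjusted p = 0.0898), but not without Scr replicate 2 (0.59) or Scr+Cy replicate 1 (0.54).

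Cdkn1c encodes p57, an inhibitor of cyclin-dependent kinases. It lies on chromosome 7 from 143458339 to 143461050, minus strand, in the domain controlled from Kcnq1ot1. It was at 3.02, 2.33, 2.38 and 2.42 CPM in Scr (76 to 112 reads), 1.02, 0.620, 0.868 and 1.24 CPM in ZIP (17 to 37 reads) and 0.212, 0.381, 0.303 and 0.360 CPM in OE (7 to 14 reads). The 3 lines did not overlap, and their order was the reverse of that of Dlk1. Against Scr, 27.2% of all genes did not overlap in ZIP and 46.5% in OE, and OE versus ZIP was not counted.

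The mean of Cdkn1c was 2.54 ± 0.326 CPM (SD, n = 4) in Scr, and the 0.939 ± 0.262 CPM of ZIP was 2.69-fold lower (log2 fold change −1.43, standard error 0.22, adjusted p = 1.76e-05). In OE it was 0.314 ± 0.0757 CPM, 7.98-fold lower than Scr (log2 fold change −3.00, standard error 0.24, adjusted p = 2.49e-10) and 2.96-fold lower than ZIP (adjusted p = 1.23e-05). Cytokine-treated cells showed the same order, with 2.44 ± 0.327 CPM in Scr+Cy, then ZIP+Cy at 0.848 ± 0.136 CPM and OE+Cy at 0.217 ± 0.0802 CPM. Treated and untreated libraries overlapped within each line, with log2 fold changes of −0.06, −0.14 and −0.52 in Scr, ZIP and OE. The last passed only without OE+Cy replicate 4 (−0.82).

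Genes around Cdkn1c did not follow it uniformly. Kcnq1ot1, the paternally expressed antisense RNA of the domain, averaged 46.6 ± 17.1 CPM in Scr, with 46.8 ± 5.44 CPM in ZIP and 57.7 ± 11.1 CPM in OE, with log2 fold changes of 0.00 and 0.31 (standard errors 0.25) that did not pass. Without Scr replicate 2 the value of Kcnq1ot1 in OE was 0.59 and passed. Cd81, a tetraspanin gene, was lower in ZIP (−0.99, standard error 0.13, adjusted p = 2.22e-06) and in OE (−2.50, standard error 0.14, adjusted p = 2.92e-13). The potassium channel gene Kcnq1, below 1 CPM in every group, had −1.96 in ZIP (adjusted p = 0.00607) and −2.73 in OE (adjusted p = 2.05e-04). In OE, Tssc4 (1.10, adjusted p = 2.35e-09) and Osbpl5 (0.78, adjusted p = 2.44e-05) were higher, and their log2 fold changes in ZIP were 0.21 and −0.29. Trpm5, a cation channel gene, and Nap1l4, a histone chaperone gene, had log2 fold changes between −0.22 and 0.06 in both lines. In all, 2 of 10 listed neighbours in this domain were called in ZIP (14.4% of all genes) and 6 in OE (24.9%).

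Of 19 genes listed for the G1 phase of the cell cycle, 1 was higher in ZIP and 2 were lower in OE. Of all genes, 7.62% were higher in ZIP and 14.1% lower in OE. Ccnd2, the main D-type cyclin of β cells, averaged 1439 ± 232 CPM in Scr, with 2947 ± 278 CPM in ZIP (log2 fold change 1.03, standard error 0.15, adjusted p = 5.45e-06) and 801 ± 138 CPM in OE (−0.85, standard error 0.15, adjusted p = 3.11e-05). Ccnd2 was thus higher in ZIP and lower in OE, while Cdkn1c was lower in both lines. A link between these genes was not tested. Cdkn2a, which encodes p16 and ARF, was lower in OE (−0.91, standard error 0.09, adjusted p = 4.45e-09). The other inhibitors of the family, Cdkn1a and Cdkn1b, had log2 fold changes of −0.27 and −0.03 in ZIP and −0.16 and 0.18 in OE. The proliferation marker Mki67 had −0.30 in ZIP and −0.18 in OE, both under the fold change limit.

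Plagl1 encodes a zinc finger transcription factor also called ZAC1, linked to transient neonatal diabetes in humans when overexpressed. It lies on chromosome 10 from 13090832 to 13131694, plus strand. It was at 234, 220, 244 and 212 CPM in Scr and at 132, 134, 133 and 121 CPM in ZIP, without overlap (27.2% of all genes). In OE it was at 272, 216, 202 and 217 CPM and overlapped Scr. The mean of Plagl1 in ZIP, 130 ± 5.91 CPM (SD, n = 4), was 1.75-fold lower than 227 ± 14.2 CPM in Scr (log2 fold change −0.81, standard error 0.14, adjusted p = 1.04e-04), while in OE the log2 fold change was −0.0045 (standard error 0.14).

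The difference of Plagl1 between ZIP and Scr cells was also found with cytokines. It was at 225 ± 16.3 CPM in Scr+Cy and 138 ± 21.7 CPM in ZIP+Cy (log2 fold change −0.71, standard error 0.14, adjusted p = 4.6e-04), without overlap. The share of all genes without overlap was not computed for this pair. OE+Cy varied most, from 123 CPM in replicate 4 to 250 CPM in replicate 1. OE exceeded ZIP by 0.80 (adjusted p = 4.35e-05), and OE+Cy exceeded ZIP+Cy by 0.48, under the fold change limit, or by 0.64 and past it without OE+Cy replicate 4. No cytokine change within a line passed, with values of −0.01, 0.08 and −0.24 in Scr, ZIP and OE. The non-coding Hymai overlaps Plagl1, stood at 0.817 ± 0.304 CPM in Scr, and was not called in either line. Its neighbour Phactr2 was lower in OE, with a value of −1.04 (standard error 0.12, adjusted p = 8.01e-08), and Fuca2 had −0.49 there.

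Peg3 encodes a large zinc finger protein and lies on chromosome 7 from 6705960 to 6730419, minus strand. It was the second most abundant member per kb, and its group means spanned 0.27 on the log2 scale, less than those of any other member. Its level was 1843, 1964, 2050 and 1969 CPM in Scr, 2259, 2142, 2145 and 1838 CPM in ZIP and 2313, 1901, 2220 and 1862 CPM in OE. All 3 lines overlapped, with log2 fold changes of 0.10 in ZIP and 0.08 in OE (standard errors 0.09, adjusted p = 0.46 and 0.471). No comparison called Peg3, and the largest change with cytokines was in OE, from 2074 ± 226 to 1750 ± 256 CPM (−0.25, standard error 0.09, adjusted p = 0.0319), with overlap. Usp29 and Zim1, which share its domain, had log2 fold changes between −0.27 and 0.26 in both lines. Peg3os, antisense to Peg3, was called higher in OE on 1 library, with 97 reads in OE replicate 4 and 1 to 5 in the other 3, and had 0 to 13 reads per library in the other groups.

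Grb10 encodes an adaptor that restrains signalling of the insulin and IGF1 receptors. It lies on chromosome 11 from 11930499 to 12037420, minus strand. It was low throughout, with 6 to 36 reads in Scr, 13 to 21 in ZIP, 16 to 28 in OE, 10 to 18 in Scr+Cy, 3 to 11 in ZIP+Cy and 14 to 31 in OE+Cy. Replicates 1 to 4 had 36, 15, 16 and 6 reads in Scr, 21, 13, 15 and 17 in ZIP, and 11, 3, 3 and 4 in ZIP+Cy. The ZIP+Cy libraries lay below all ZIP libraries, a pair for which the share of all genes without overlap was not computed. Replicate 1 was the highest in 5 of the 6 groups.

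In ZIP cells, cytokines lowered Grb10 from 0.570 ± 0.141 to 0.183 ± 0.135 CPM (SD, n = 4), 3.06-fold (log2 fold change −1.61, standard error 0.47, adjusted p = 0.0121). In Scr the log2 fold change with cytokines was −0.33 (standard error 0.42) and in OE 0.13 (standard error 0.41), and neither passed. The difference between the responses of ZIP and Scr was −1.29 (standard error 0.63, unadjusted p = 0.053, adjusted p = 0.777), so these data did not separate them. ZIP+Cy was also lower than Scr+Cy (−1.17, standard error 0.47, unadjusted p = 0.0211, adjusted p = 0.0685), with overlap. That call was lost without Scr+Cy replicate 1 (−1.01), ZIP+Cy replicate 2 (−0.97), ZIP+Cy replicate 3 (−1.02) or ZIP+Cy replicate 4 (−1.03).

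Without cytokines, Grb10 had log2 fold changes of 0.11 in ZIP and 0.22 in OE, with standard errors of 0.42 and 0.41. In OE+Cy it was at 1.08, 0.542, 0.442 and 0.638 CPM, above all ZIP+Cy libraries (log2 fold change 1.86, standard error 0.46, adjusted p = 0.00156). When the 3 libraries with connective tissue transcripts were left out, OE+Cy was called above Scr (0.84, unadjusted p = 0.0465) and above Scr+Cy (0.85, unadjusted p = 0.0482). In all libraries these values were 0.35 and 0.68. The other calls and non-calls of the members in that alternative were as with all libraries. Of the neighbours of Grb10 none was called in either line, and Ddc, which makes dopamine and serotonin from their precursors, had log2 fold changes of 0.17 in ZIP and 0.03 in OE, and Fignl1 −0.23 and 0.35.

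**Figure D3:**
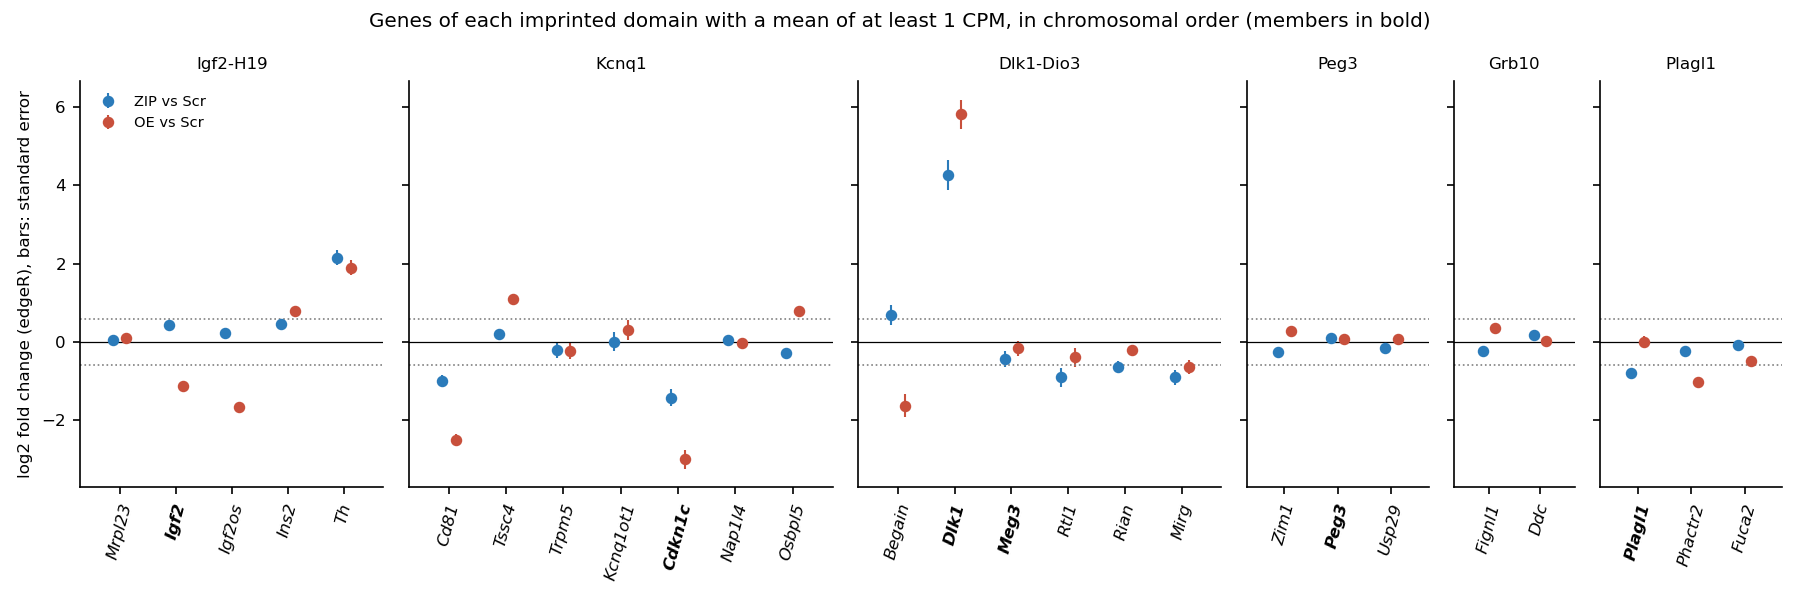
Log2 fold changes from edgeR, with standard errors, in ZIP (blue) and OE (red) versus Scr for the genes of 6 imprinted domains with a mean of at least 1 CPM, each domain in chromosomal order and members in bold. Dotted lines mark a fold change of 1.5. In the Dlk1 domain, Dlk1 was higher and Rian, Mirg and Rtl1 lower in ZIP, and in the Igf2 domain, Igf2 and Igf2os were lower and Ins2 and Th higher in OE.

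Taking all 34 genes listed as neighbours of the members, 29 were in the table. Of these, 2 were higher and 5 lower in ZIP (14.4% of all genes were called there), 5 were higher and 8 lower in OE (24.9%), and 1 was higher and 1 lower in Scr+Cy (10%). The higher gene in Scr+Cy was Ikzf1, with 52 reads in replicate 1, a library with connective tissue transcripts, and 0 to 3 in the other 3, and its call was lost without the 3 such libraries. Their median log2 fold change was −0.23 in ZIP and −0.22 in OE, beside 0 over all genes. Over the 20 neighbours with a mean of at least 1 CPM it was −0.12 in ZIP, and in OE it differed from 0 by less than 0.01. Within 1 Mb on each side of Igf2, 10 of 19 genes with a mean of at least 1 CPM were called in OE (4 higher and 6 lower), where 24.9% of all genes were called, and 5 in ZIP (2 and 3), where 14.4% were. Around Dlk1, 5 of 12 were called in ZIP (1 and 4) and 2 in OE, both lower. Around Peg3, 1 of 13 was called in each line. Genes below 1 CPM are part of the shares over all genes but not of these windows, so the shares are not a matched baseline. The window around Igf2 also holds the member Cdkn1c, which was called lower in both lines.

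Of 46 other imprinted genes, 39 were in the table. Of these, 5 were higher and 3 lower in ZIP (14.4% of all genes were called there). In OE 5 were higher and 6 lower (24.9%), and in Scr+Cy 4 were higher and 2 lower (10%). Without the 3 libraries with connective tissue transcripts, 2 were higher and 1 lower in Scr+Cy, where Xist, Sgce and Sfmbt2 were no longer called. Kcnk9, a potassium channel gene, showed opposite changes. It averaged 21.4 ± 2.92 CPM in Scr, against 1.86 ± 0.376 CPM in ZIP (log2 fold change −3.51, standard error 0.28, adjusted p = 7.07e-10) and 283 ± 33.2 CPM in OE (3.72, standard error 0.22, adjusted p = 6.79e-13). Pon2, a paraoxonase gene, was lower in OE (−3.19, standard error 0.27, adjusted p = 4.43e-10), and Asb4 rose after cytokines in Scr by 1.04 (standard error 0.16, adjusted p = 1.81e-05). Xist was called higher in ZIP (4.81, adjusted p = 0.0227) and Scr+Cy (4.70, adjusted p = 0.0382), but 958 of its reads in ZIP and 1024 in Scr+Cy were in replicate 1, a library with connective tissue transcripts. Without ZIP replicate 1 the value in ZIP was −0.12, and without Scr+Cy replicate 1 that in Scr+Cy was 0.55. DESeq2 gave no p value for Xist in either comparison.

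Of 20 genes listed for the upkeep of imprints, 17 were in the table. Of these, 2 were higher in ZIP (7.62% of all genes), and 2 were higher (10.8%) and 1 lower (14.1%) in OE. Tet1, which oxidizes methylated cytosine, rose in both lines. Its mean of 3.79 ± 0.632 CPM in Scr compared with 24.5 ± 5.09 CPM in ZIP (log2 fold change 2.69, standard error 0.17, adjusted p = 1.99e-11) and 28.4 ± 5.22 CPM in OE (2.90, standard error 0.17, adjusted p = 9.63e-13). Zfp445, a zinc finger gene that maintains imprints, was higher in ZIP by 0.78 (standard error 0.06, adjusted p = 9.74e-11), and the methyltransferase gene Dnmt3b was higher in OE by 0.91 (standard error 0.15, adjusted p = 1.75e-05). Dnmt1, which copies methylation at replication, had −0.34 in ZIP and 0.12 in OE, under the fold change limit. No methylation was measured in these libraries.

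Genes whose profile over the 6 groups was closest to a member were found for Igf2, Dlk1 and Cdkn1c, the 3 with a mean of at least 1 CPM and group means spanning at least 1 on the log2 scale. The distance is the root mean square difference of centred group means on the log2 CPM scale over 6 groups, among 12670 genes with a mean of at least 1 CPM. For Igf2 the nearest were Myorg (distance 0.094), Grin1os (0.099) and Agap2 (0.105), at 11.7, 5.71 and 38.6 CPM in Scr, on chromosomes 4, 2 and 10. For Dlk1 they were AI662270 (0.457), Ccdc8 (0.525) and Slc35f3 (0.539), none of them on chromosome 12. For Cdkn1c they were Sardh (0.112), Arrb1 (0.170) and Smagp (0.221), with Arrb1 at 84.7 ± 7.71 CPM in Scr against 10.7 ± 2.59 CPM in OE. Under a smaller prior count of 0.5 the same genes led for Igf2 and Dlk1, and Epha8 took the place of Smagp for Cdkn1c. With so many genes compared, close profiles are found for many patterns, and the likeness is a description only.

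**Figure D4:**
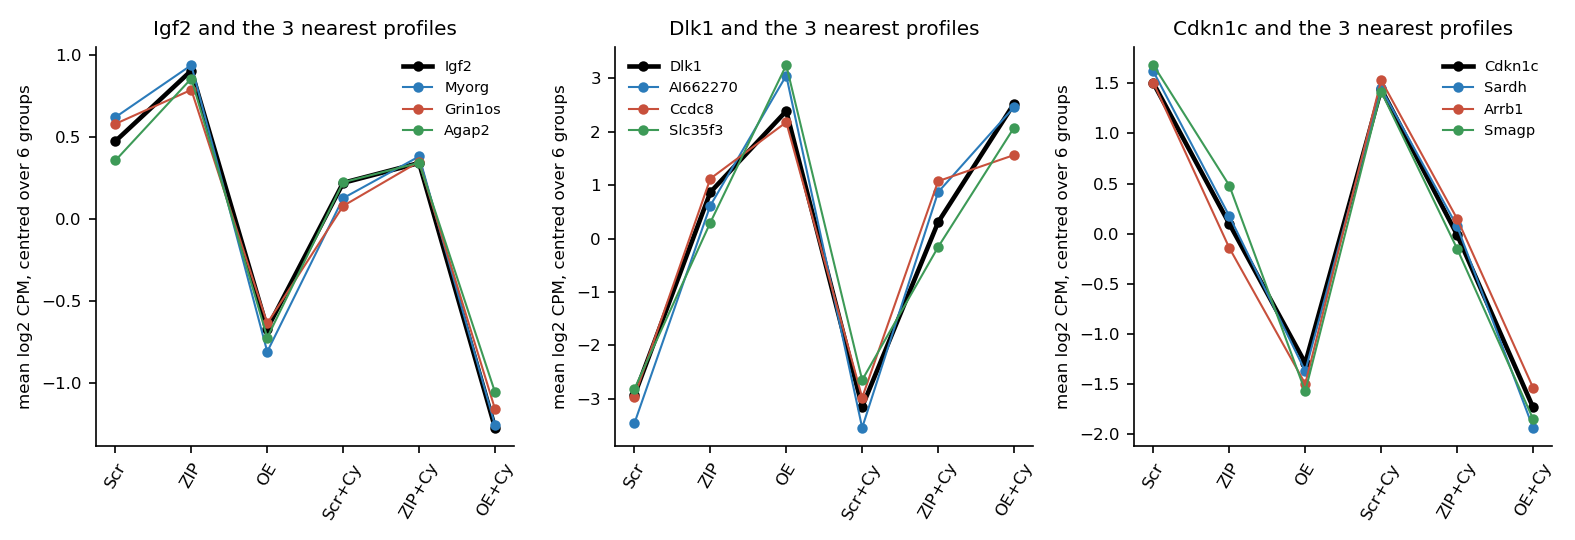
Mean log2 CPM in each of the 6 groups, centred on the mean over the groups, for Igf2, Dlk1 and Cdkn1c (black) and the 3 genes with the smallest root mean square difference from each (coloured). The vertical scales differ between panels. The lines of Igf2 and its nearest genes peak in ZIP and are lowest in OE+Cy, with differences of 0.094 to 0.105.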

How the data were processed

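RNA of the MIN6 lines had been made into mRNA libraries. Per the labels, the authors' processing notes name FastQC, STAR 2.7.8a, Partek 11.0.24.0204, DESeq2 and the mm10 genome. The methods of the paper give other versions of STAR and Partek. The count table that the authors deposited holds unnormalized estimated counts of genes with at least 10 reads in total. Per the methods, reads were assigned with a RefSeq transcript annotation. Counting method and use of strand were not given in the sources used here, so overlapping and antisense genes (Igf2os, Peg3os, Hymai, Rtl1) are uncertain. A normalized table of the same libraries was not used.

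Of the estimated counts, 30.3% were not whole and were rounded. All 17696 genes entered a model with 6 group means in edgeR 4.0.16 under R 4.3.3 (TMM scaling, glmQLFit, glmQLFTest). Calls followed the limits given above, interactions needed an adjusted p under 0.05, and genes with at most 3 reads in every library compared were never called. Adjustment was by Benjamini-Hochberg across the whole table, and a standard error is the log2 fold change divided by the square root of F. The script was tested on simulated data.

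Members, lists and tests were chosen with earlier results of these data known. Named genes were the 8 members, their neighbours with a mean of at least 1 CPM, and from each other list the 2 largest called changes in ZIP, OE and Scr+Cy with that mean. Ins1, Igf2r, Igfbp7 in OE, Dnmt1, Mki67, Cdkn1a, Cdkn1b, Kcnq1, Krt19, Ucn3, Ppy, Irx2, Gcg, Ikzf1, Igfbp6, Sgce, Sfmbt2, Peg3os and Hymai were named outside this rule, after their values had been seen. Deviations of libraries with the same replicate number correlated at over 0.1 for all 4 numbers in 6 of 11 comparisons, for example from 0.413 to 0.626 in Scr+Cy versus Scr and from 0.261 to 0.397 in ZIP+Cy versus ZIP. The pairing comes from the numbers in the labels, where each number goes with a code shared by all 6 groups that the labels do not explain. Alternatives were DESeq2 1.42.0, its size factors used in edgeR, filterByExpr, a fit to just the groups of a comparison, a replicate block, calls on adjusted p and leaving out each library in turn.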

Additional observations from a re-analysis of the deposited data

Results flagged for a closer look

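The gap between the extreme library and the others was large for its group (Dixon's 95% criterion) in 4 of 42 combinations of member and group, where chance alone gives about 1 in 20. Dlk1 in Scr+Cy replicate 4 was at 0.240 CPM, compared with 0.0616 to 0.0689 CPM in the other 3 libraries, a difference of 8 against 2 reads. Cdkn1c in Scr replicate 1 was at 3.02 CPM, the others at 2.33 to 2.42 CPM. Grb10 in ZIP+Cy replicate 1 was at 0.384 CPM, the others at 0.104 to 0.129 CPM. Plagl1 in ZIP replicate 4 was at 121.4 CPM, the others at 132 to 134 CPM. No called difference of a member between lines changed direction when 1 library was left out.

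The cytokine response of Igf2 differed between OE and Scr cells. Its log2 fold change was −0.25 in Scr and −0.60 in OE, a difference of −0.346 (interaction in edgeR, adjusted p = 0.014), and all 22 alternatives kept it, from −0.40 to −0.31.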

How the results depend on the processing

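Of the members' log2 fold changes under all alternatives, 1630 kept their direction and side of the limits or had not been called. Another 18 passed only in the alternative and 11 were lost. The 1630 include all values of H19, which could not be called, and values called in neither setting. The number of members called moved by over 1.5 times only within ZIP and OE. In ZIP+Cy versus ZIP it was 1, but 2 with the replicate block, which added Dlk1, and 1 to 3 when a library was left out, which also added Dlk1 or Igf2. In OE+Cy versus OE it was 1, and 0 to 2 when a library was left out, which removed Igf2 or added Meg3 or Cdkn1c. The cause of these shifts was not tested. In the other comparisons, leaving out a library gave 3 to 4 members for ZIP versus Scr, 3 for OE versus Scr, 0 for Scr+Cy versus Scr, 5 for ZIP+Cy versus Scr, and 3 to 4 for OE+Cy versus Scr. Against Scr+Cy it gave 3 to 5 for ZIP+Cy and 3 for OE+Cy, and between OE and ZIP it gave 4 without cytokines and 4 to 5 with them. The changes were in Meg3, Grb10 and Plagl1. The block changed no other call of a member in comparisons where the numbers paired the libraries. In OE+Cy versus Scr+Cy, whose libraries share a number and an unexplained code in the labels but did not all deviate together, it added Grb10 (0.66, unadjusted p = 0.0474). Xist, 4.81 in ZIP versus Scr, ranged from −0.12 to 5.34 with a library left out, and reversed without ZIP replicate 1 (−0.12) and without the 3 libraries with connective tissue transcripts (−0.27), an alternative chosen after seeing the data. With those 3 left out, Ins2 in ZIP passed the limit (0.59). DESeq2's size factors moved the median of all genes by at most 0.03 on the log2 scale. Dlk1 in Scr and Scr+Cy, Cdkn1c in OE, ZIP+Cy and OE+Cy, Grb10 and H19 are limited by depth, with 36 reads or fewer per library. Cdkn1c in ZIP had 17 to 37 reads.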
